A study of Mus musculus with 12 samples.

Results

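The TRIM family genes of mouse follicular (FO) B cells were examined as the 49 protein-coding genes whose symbol begins with Trim and a number, of 22561 genes in the count table, 13984 of them protein-coding. The study sorted splenic FO B cells of 10-week-old C57BL6 mice and measured RNA in 12 samples, 3 in each of 4 groups. These were Unstimulated cells and cells given IFNα (a type I interferon), CpG (a DNA oligonucleotide that engages TLR9) or both (CpG + IFNα) for 12 h. The labels name no transgene or deletion, and the sources used here do not say whether the Unstimulated cells were held in culture for the same time. The libraries held 922450 to 2923865 UMI counts, each count standing for 1 tagged RNA molecule read from its 3′ end.

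TRIM proteins are named for a tripartite motif of a RING domain, B-box zinc fingers and a coiled coil, and most act as E3 ubiquitin ligases. Many carry a C-terminal PRY-SPRY domain that binds a target, such as a viral capsid, and many are known as interferon-stimulated genes. IFNα acts through its receptor on transcription factors that bind the interferon-stimulated response element (ISRE) in promoters, whereas TLR9 acts through MyD88 on NF-κB and drives B cells to grow and divide.

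Of the 49 genes, 30 had enough counts to be tested. Another 6 exceeded 3 counts in at least 1 sample but were too low to test, and held 11 to 60 counts over all 12 samples (Trim6, Trim36, Trim46, Trim13, Trim45 and Trim3). A further 11 never exceeded 3 counts in any sample (Trim2, Trim15, Trim16, Trim17, Trim34b, Trim47, Trim62, Trim66, Trim67, Trim69 and Trim72), and Trim10 and Trim75 had no count. A count of 0 in a library allows up to 3 counts there, and such limits cover counting error only. Of 6 neuronal or NHL-type TRIM genes in the table, only Trim32 was tested, and Trim72, which is known for membrane repair in muscle, had 1 count in all.

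Levels are given as normalized CPM (counts scaled to library size by TMM factors), which compare a gene between samples rather than 1 gene with another. A gene was called a differentially expressed gene (DEG) where the adjusted p of edgeR's quasi-likelihood test was under 0.1 and the fold change over 2, and "rose" or "fell" is used of genes with an adjusted p under 0.1. The samples were checked against cell markers. The summed level of 6 B cell markers was 6502 to 7428 CPM in Unstimulated, 6708 to 7553 in IFNα, 1334 to 1482 in CpG and 1188 to 1292 in CpG + IFNα samples. Follicular markers summed to 5132 to 5888 CPM in Unstimulated, 3844 to 4658 in IFNα, 939 to 1116 in CpG and 881 to 997 in CpG + IFNα samples. Marginal zone markers summed to 219 to 222, 88.8 to 123, 43 to 56.3 and 27.8 to 36.5 CPM, in the same order, so both lists were lower with IFNα than in Unstimulated samples, without overlap. Markers of T cells (4 in the table) summed to at most 3.64 CPM, with Cd3g and Cd8a at 0, and those of NK cells to at most 1.23, with Gzma at 0. The plasmacytoid dendritic cell list of 4 genes, which holds the interferon-stimulated gene Bst2, moved with IFNα. It summed to 313 to 386.5 CPM in Unstimulated, 1342 to 1669 in IFNα, 256 to 299 in CpG and 1196 to 1344 in CpG + IFNα samples, with the defining marker Siglech at 0. Myeloid markers summed to 5.30 to 24.6 CPM in Unstimulated samples and to at most 13.0 in IFNα, 3.0 in CpG and 1.64 in CpG + IFNα samples. Erythroid markers varied most within a group, from 36.2 to 261 CPM in Unstimulated and 9.16 to 271 in IFNα samples, and the part of these lists in the TRIM results was not tested. In bulk RNA, fewer cells of a type and less RNA per cell cannot be told apart.

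TRIM genes together took 0.203% of all counts in each Unstimulated library, 0.420% to 0.432% in IFNα, 0.132% to 0.133% in CpG and 0.251% to 0.265% in CpG + IFNα libraries. The 4 groups did not overlap in this share. Trim30a and Trim28 made up a large part of it, in turn. Trim30a took 8.23% to 9.90% of the TRIM counts in Unstimulated, 29.3% to 30.8% in IFNα, 4.26% to 5.21% in CpG and 26.6% to 28.3% in CpG + IFNα samples. Trim28 took 8.43% to 11.1%, 3.52% to 4.42%, 34.4% to 37.3% and 15.9% to 19.0%, in the same order.

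The comparison of IFNα with Unstimulated cells asked which TRIM genes respond to interferon alone. Of the 30 tested genes, 10 rose as DEGs (background: 4.56% of the 9431 genes tested) and 3 fell as DEGs (background: 4.07%). By adjusted p alone, 10 rose (background: 12.4%) and 4 fell (background: 11.9%), the one under 2-fold being Trim5. The median log2 fold change was 0.21 over the 30 TRIM genes and −0.001 over all genes. The same question in the presence of CpG, asked by comparing CpG + IFNα with CpG, gave 11 genes that rose as DEGs (background: 2.95%). None fell as a DEG (background: 2.01%). By adjusted p alone, 13 rose (background: 6.54%) and 1 fell, Trim59 (background: 8.83%), and 2 genes were lower at an unadjusted p under 0.05. DESeq2 called 9 genes higher and 0 lower. Here the median was 0.46 over the TRIM genes and −0.04 over all genes. These 2 comparisons share no samples, but they come from 1 fit with common scaling and spread and are not fully independent.

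More of the family differed with CpG, as did more of all genes. Against Unstimulated cells, 21 of 30 TRIM genes fell as DEGs with CpG (background: 25.5%) and 2 rose (background: 20.1%), with a median log2 fold change of −1.41 over the TRIM genes and −0.03 over all genes. By adjusted p alone, 5 rose (background: 36.5%) and 23 fell (background: 38.4%). With IFNα in both groups, CpG + IFNα against IFNα, 13 fell as DEGs (background: 25.5%) and 2 rose (background: 18.7%), with medians of −0.94 and −0.07. By adjusted p alone, 5 rose (background: 36.1%) and 22 fell (background: 39.8%). In comparisons with Unstimulated cells, the stimulus and the time in culture cannot be told apart. Of 6 immediate-early genes, all 6 were lower in both IFNα and CpG samples than in Unstimulated samples, while 0 of 6 were DEGs between CpG + IFNα and CpG. For Fos the log2 fold changes were −7.95 (adjusted p = 6.13e-24) with IFNα, −7.67 (adjusted p = 7.6e-25) with CpG and −0.54 (adjusted p = 0.46) between CpG + IFNα and CpG. The B cell marker sum, given above, was also lower in the groups with CpG and its part was not tested.

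**Figure D1:**
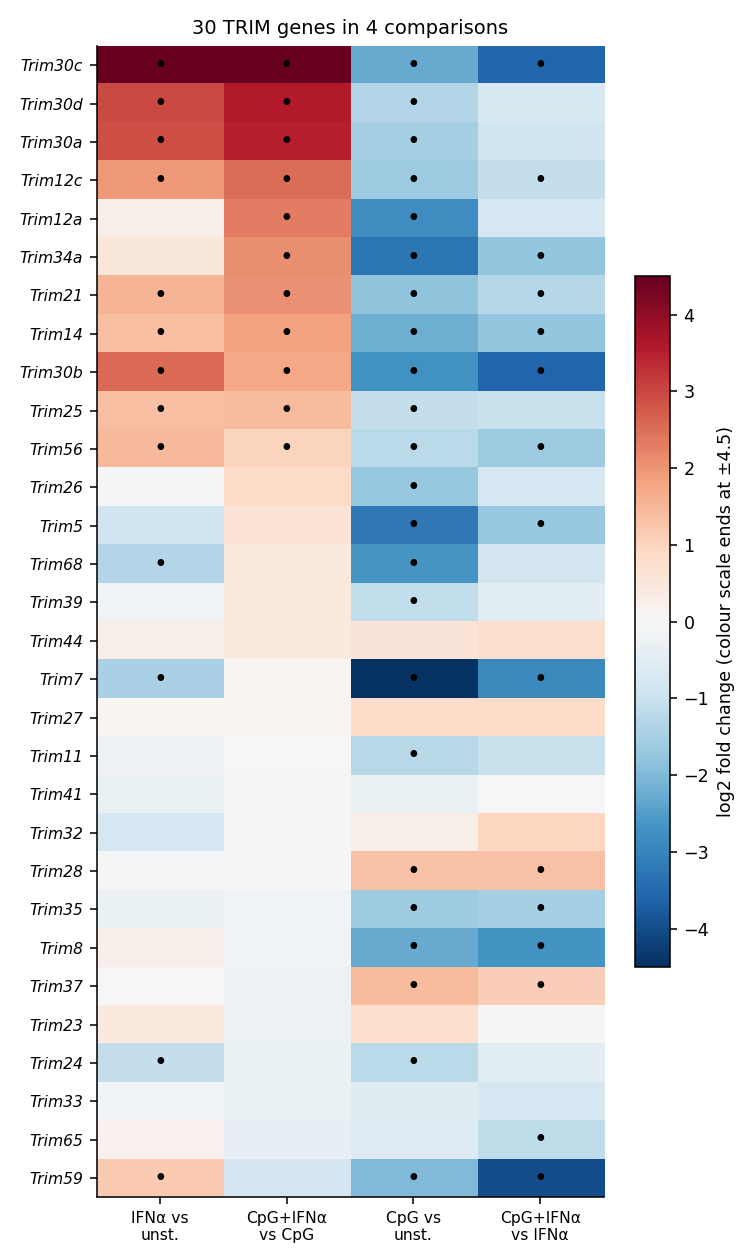
Log2 fold change of the 30 tested TRIM genes (rows) in 4 comparisons (columns), ordered by the effect of IFNα in the presence of CpG. Red is higher and blue lower in the first-named group, and a dot marks a DEG. The IFNα columns hold 10 and 11 dots on red, the CpG column 21 dots on blue. The dot of Trim30c in the CpG column rests on 4 and 1 counts.

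The 5 highest log2 fold changes with IFNα, without as well as with CpG, belonged to genes in 1 stretch of chromosome 7. Joining TRIM genes less than 100 kb apart gave a cluster of 10 genes over 289 kb, at chr7:104218793-104507849 (GRCm38). It holds Trim6, Trim34a, Trim5, Trim12a, Trim34b, Trim12c, Trim30b, Trim30c, Trim30a and Trim30d, which are relatives of primate TRIM5, a restriction factor that recognises retroviral capsids. Trim6 and Trim34b were too low to test. Of the 8 tested genes, 5 rose as DEGs with IFNα alone (background: 4.56%) and 7 with IFNα in the presence of CpG (background: 2.95%), with median log2 fold changes of 2.25 and 2.41. Both tallies include Trim30c, which held 4 counts over the Unstimulated and 1 over the CpG samples. It reached the test through its counts in samples with IFNα, the groups where it was high. The 7 also include Trim34a, whose call was lost with DESeq2 and in 4 of 12 fits that left out a sample. Of the 22 other tested TRIM genes, 5 and 4 rose as DEGs, with medians of −0.02 and −0.02. All 8 cluster genes fell as DEGs with CpG, with a median of −2.51 (background: 25.5%), against 13 of the 22 others, with a median of −1.15. The median of −2.51 lies midway between Trim30b and Trim30c, so it rests in part on the low counts of Trim30c. Among these 8 calls, that of Trim30c rests on 4 and 1 counts, too few for a test on the Unstimulated and CpG samples alone. It was lost in 7 of 12 fits that left out a sample, without the filter, with DESeq2 and with the replicate block.

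**Figure D2:**
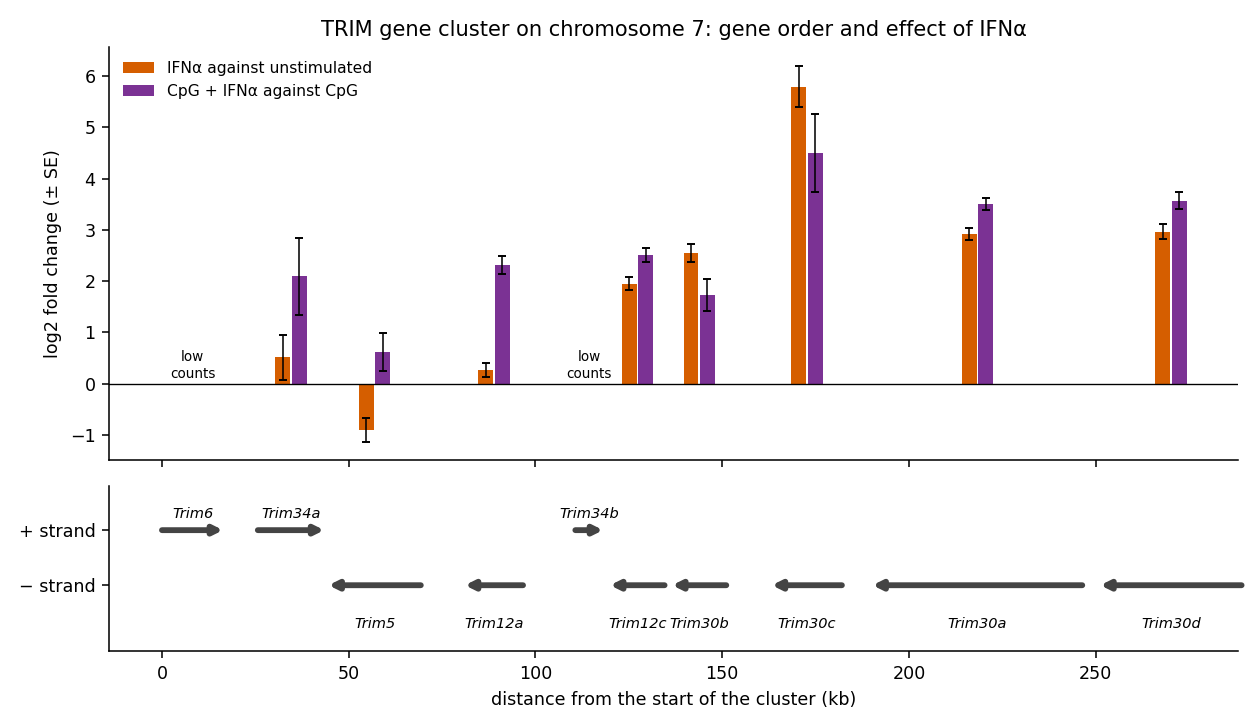
Gene order in the chromosome 7 cluster (lower panel, arrows give the strand) and log2 fold change ± SE with IFNα, without CpG (orange) and with CpG (purple), against distance from the start of the cluster in kb. Trim12c and the 4 Trim30 genes rise in both comparisons, Trim12a and Trim34a pass the test in the purple comparison alone, and the Trim30c bars rest on 4 counts in Unstimulated and 1 in CpG samples.

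Sequences at the transcription starts are shown because close copies in the cluster differed in their response. RefSeq promoter windows (GRCm38.p6, 250 bases before to 50 after the start) were at hand for 39 of the 49 genes, 24 of them tested. The core letters of an ISRE, searched as GAAA, any 2 bases and GAAA again on either strand, were found in 9 of the 39 genes, 8 of them tested, and in 3.99% of 27025 genes with a window. Beside Trim2, which was too low to test, these were the 8 genes shown here, each read 5′ to 3′ on the strand of its gene, with the matching letters in capitals (2 overlapping matches in Trim21 and in Trim26). All but Trim34a and Trim26 lie on the minus strand. Trim30a was read at chr7:104465210-104465239, Trim30d at chr7:104507871-104507900, Trim12a at chr7:104315466-104315495, Trim5 at chr7:104288136-104288165, Trim12c at chr7:104353359-104353388, Trim34a at chr7:104244457-104244486, Trim21 at chr7:102565447-102565476 and Trim26 at chr17:36836979-36837008.
Trim30a: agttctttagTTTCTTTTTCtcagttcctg
Trim30d: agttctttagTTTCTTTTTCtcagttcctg
Trim12a: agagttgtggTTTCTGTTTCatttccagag
Trim5: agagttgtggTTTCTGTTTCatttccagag
Trim12c: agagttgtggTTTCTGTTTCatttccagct
Trim34a: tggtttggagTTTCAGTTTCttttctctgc
Trim21: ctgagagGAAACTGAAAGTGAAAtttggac
Trim26: cttccgaTTTCACTTTCCTTTTCtcgggcc

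The first base shown lay between 167 bases before (Trim26) and 6 after (Trim21) the RefSeq start. Over 60 bases around the match, Trim12a and Trim5 were identical at 60, Trim12a and Trim12c at 57, and Trim30a and Trim30d at 59 positions. Of the 9 genes with a window that rose as DEGs with IFNα alone, 4 held the letters, as did 4 of the 15 other tested genes with a window. The only window of Trim30b, at chr7:104358597-104358896, lay inside its gene (chr7:104355382-104369884, minus strand) and not at the annotated 5′ end. Its lack of the letters therefore does not describe that end. Trim30a had a further window, not shown, that also held the letters. For IFNα in the presence of CpG the counts were 6 of 10 and 2 of 14. A match is a run of letters and not a measured binding site.

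Trim30a (ENSMUSG00000030921), which is known to restrain NF-κB signalling downstream of Toll-like receptors, was at 170.2, 165 and 196 CPM in Unstimulated, 1432, 1268 and 1306 in IFNα, 63.9, 55.6 and 68.4 in CpG and 709.7, 758 and 678 in CpG + IFNα samples. The 4 groups did not overlap, and CpG samples were the lowest. It rose by 2.91 (SE 0.12, adjusted p = 7.06e-20) on the log2 scale with IFNα alone and by 3.5 (SE 0.13, adjusted p = 5.89e-21) in the presence of CpG. With CpG it fell (log2 fold change −1.49, SE 0.13, adjusted p = 1.42e-11).

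Trim30d (ENSMUSG00000057596), the near copy of Trim30a in promoter sequence, was at 55.5, 48.1 and 75 CPM in Unstimulated, 539.8, 439 and 437 in IFNα, 28.2, 21.4 and 22 in CpG and 254, 311 and 284 in CpG + IFNα samples. Its groups stood in the same order, without overlap. The log2 fold changes were 2.97 (SE 0.15, adjusted p = 1.74e-17) with IFNα alone and 3.57 (SE 0.16, adjusted p = 1.53e-18) with IFNα in the presence of CpG. Of the 81-base words in the last 500 bases of its transcripts, 15% also occur in Trim30a, so some reads could be divided between the pair, while none of the end words of Trim30a, Trim30b and Trim30c were found in another gene.

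Trim30b and Trim30c, 2 further copies whose own roles are less described, kept little of their IFNα level when CpG was added. Trim30b (ENSMUSG00000052749) was at 35.5, 50.3 and 36.2 CPM in Unstimulated, 216, 254 and 238 in IFNα, 8.6, 2.85 and 5.99 in CpG and 12, 20.4 and 26.7 in CpG + IFNα samples, 4 groups without overlap. It rose by 2.55 (SE 0.18, adjusted p = 1.28e-13) with IFNα alone and by 1.73 (SE 0.31, adjusted p = 0.0001) in the presence of CpG, and was lower in CpG + IFNα than in IFNα (log2 fold change −3.57, SE 0.17, adjusted p = 2.27e-18). Trim30c (ENSMUSG00000078616) was nearly silent without IFNα. It was at 2.73, 0 and 0.882 CPM in Unstimulated, 84.8, 66.9 and 73.3 in IFNα, 0, 0.713 and 0 in CpG and 4.91, 8.28 and 4.63 in CpG + IFNα samples, so the groups without IFNα overlapped near 0 and the others stood apart. Summed over each group, 290 counts in IFNα against 4 in Unstimulated samples gave a ratio of 58.2 (95% counting interval 22.5 to 215), and 42 in CpG + IFNα against 1 in CpG samples a ratio of 31.7 (5.38 to 1280). Trim30c passed the test in both (adjusted p = 1.1e-13 and 3.94e-05) and was lower in CpG + IFNα than in IFNα (log2 fold change −3.56, SE 0.25, adjusted p = 1.66e-14). Its call with CpG alone (adjusted p = 0.0966) rests on 4 and 1 counts, and no fold is given here. The corresponding differences between CpG + IFNα and IFNα were −0.90 (adjusted p = 3.29e-09) for Trim30a and −0.73 (adjusted p = 2.11e-06) for Trim30d, under 2-fold.

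Trim12c (ENSMUSG00000057143), a mouse relative of TRIM5 known to promote interferon and NF-κB signalling, was at 82.8, 72.7 and 88.2 CPM in Unstimulated, 319.9, 314 and 314 in IFNα, 26.4, 27.1 and 25.5 in CpG and 139, 148 and 164 in CpG + IFNα samples. No groups overlapped, and replicates lay close together. It rose by 1.95 (SE 0.12, adjusted p = 7.4e-15) with IFNα alone and by 2.51 (SE 0.14, adjusted p = 3.22e-16) in the presence of CpG.

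Trim12a (ENSMUSG00000066258), its neighbour with 57 of 60 bases in common around the ISRE letters, behaved otherwise. It was at 146, 149 and 138 CPM in Unstimulated, 167, 207 and 143 in IFNα, 22.1, 18.5 and 21.5 in CpG and 90.5, 121 and 97.6 in CpG + IFNα samples. Unstimulated and IFNα samples overlapped, while the CpG and CpG + IFNα samples lay apart from each other and below both. The log2 fold change was 0.27 (SE 0.13, adjusted p = 0.17) with IFNα alone, which did not pass, against 2.31 (SE 0.17, adjusted p = 7.34e-13) in the presence of CpG. The first value turned on single IFNα samples, at 0.40 without replicate 3, which passed (adjusted p = 0.0538), and at 0.11 without replicate 2. With CpG alone Trim12a fell (log2 fold change −2.78, SE 0.17, adjusted p = 1.65e-15), and the difference between both IFNα effects was 2.04 (SE 0.22, adjusted p = 5.7e-08) on the log2 scale.

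Trim5 (ENSMUSG00000060441), with the same 60 bases as Trim12a, was singled out after its values were seen. It was at 39.1, 57.8 and 37.9 CPM in Unstimulated, 24.2, 29.8 and 16.8 in IFNα, 4.91, 4.28 and 4.99 in CpG and 6.0, 6.55 and 9.76 in CpG + IFNα samples. Every IFNα sample lay below every Unstimulated sample, and Trim5 fell with IFNα alone (log2 fold change −0.89, SE 0.23, adjusted p = 0.00547). In the presence of CpG the value was 0.62 (SE 0.37, adjusted p = 0.332), which did not pass, and with CpG alone it fell (log2 fold change −3.2, SE 0.30, adjusted p = 3.03e-11). Of the words in its transcript ends, 17.4% also occur in Trim12c or Gm4992, which makes the split of reads uncertain.

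Trim34a, also chosen after its values were seen, was low throughout, at 7.28, 5.35 and 12.4 CPM in Unstimulated, 9.08, 9.12 and 18.3 in IFNα, 0, 0 and 2.0 in CpG and 4.91, 2.42 and 4.11 in CpG + IFNα samples. It fell with CpG (log2 fold change −3.3, SE 0.71, adjusted p = 0.000117). In the presence of CpG it was higher with IFNα, by 2.1 (SE 0.75, adjusted p = 0.0685), a call that was lost without CpG replicate 1 (1.58) or replicate 2 (1.66) and without CpG + IFNα replicate 1 (1.88) or replicate 3 (2.01). Of its end words, 67.5% are shared with Trim34b or Gm47248. Trim6, at the edge of the cluster, held 10 counts over the IFNα samples and 0 over the Unstimulated and the CpG + IFNα samples. With the floor of 3 counts set over the group for each 0, it was 2.68-fold higher in IFNα than in Unstimulated samples. On the same footing it was 5.64-fold lower in CpG + IFNα than in IFNα samples. Both folds take the 10 counts as exact, so they are not lower limits.

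**Figure D3:**
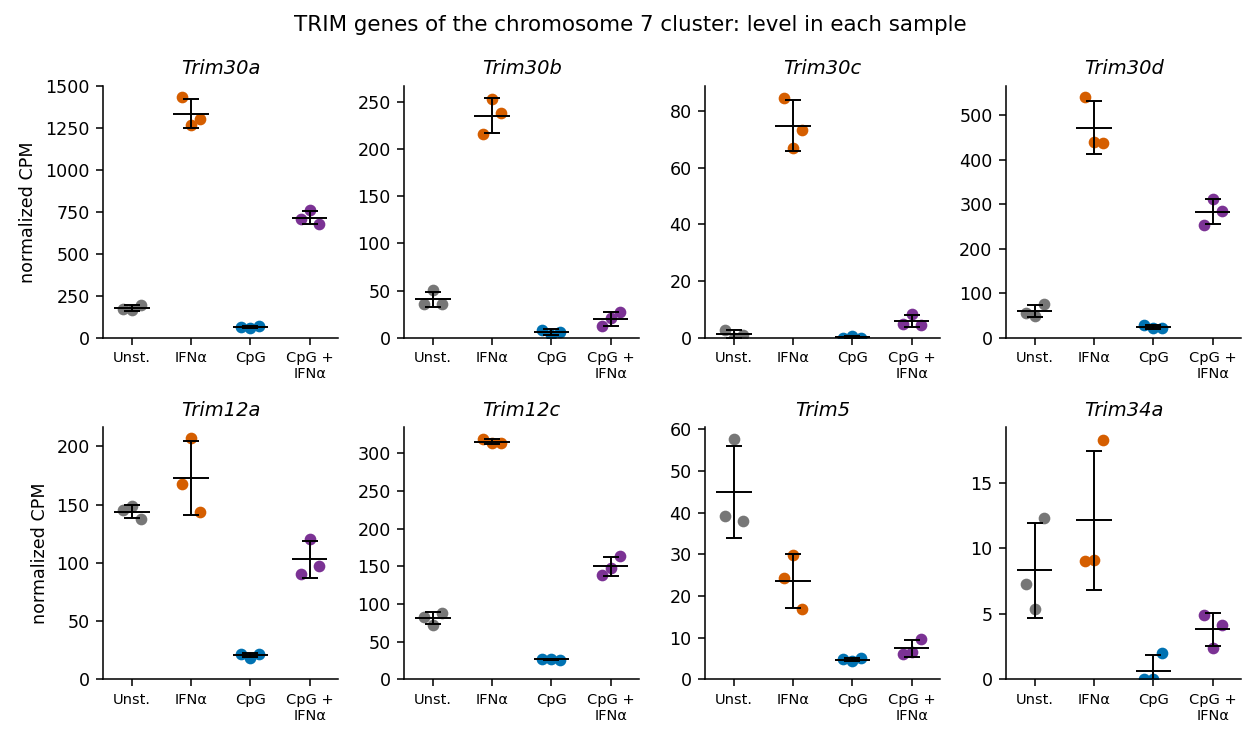
Normalized CPM of the 8 tested genes of the chromosome 7 cluster in each of the 12 samples (points), with the mean (line) and SD (bars) of 3 samples a group. The CpG group is the lowest in each panel, with Trim30c near 0 without IFNα. The Unstimulated and IFNα samples overlap for Trim12a (log2 fold change 0.27, and 0.40 with adjusted p = 0.0538 without IFNα replicate 3), the IFNα samples are lower for Trim5, and they are higher for Trim12c and the Trim30 genes.

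Outside the cluster, 15 tested TRIM genes were on a list of those known to act in innate sensing or as antiviral effectors. The list was drawn up with earlier results of these data known. With IFNα alone 5 of them rose as DEGs (Trim14, Trim21, Trim25, Trim56 and Trim59) and 1 fell (Trim68), against 4.56% and 4.07% of all genes. In the presence of CpG 4 rose (Trim14, Trim21, Trim25 and Trim56) and 0 fell as DEGs, against 2.95% and 2.01%. With CpG alone 0 rose and 11 fell, against 20.1% and 25.5%, and CpG + IFNα against IFNα gave 0 and 7, against 18.7% and 25.5%. The median log2 fold changes were 0.18, 0.10, −1.24 and −1.0, in the same order.

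Trim25 (ENSMUSG00000000275, chr11:88999376-89020293), the ligase that ubiquitinates the RNA sensor RIG-I (gene Ddx58), was at 99.2, 90.9 and 80.3 CPM in Unstimulated, 238, 209 and 246 in IFNα, 38.7, 46.3 and 43.4 in CpG and 113, 108 and 127 in CpG + IFNα samples. No groups overlapped. It rose by 1.35 (SE 0.13, adjusted p = 2.26e-10) with IFNα alone and by 1.44 (SE 0.13, adjusted p = 3.18e-10) in the presence of CpG, and the difference between these effects was 0.08 (SE 0.19, adjusted p = 0.854). It fell with CpG (log2 fold change −1.07, SE 0.15, adjusted p = 1.36e-07), and the fold was under 2 without Unstimulated replicate 1 (−0.98) or CpG replicate 1 (−0.99).

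Trim56 (ENSMUSG00000043279, chr5:137105644-137116209), known to assist cGAS and STING in DNA sensing, was at 123, 103 and 109 CPM in Unstimulated, 317, 342 and 261 in IFNα, 40.5, 49.2 and 55.4 in CpG and 88.4, 113 and 91 in CpG + IFNα samples. The CpG + IFNα samples overlapped the Unstimulated ones, CpG samples lay below them and IFNα samples above. It rose by 1.46 (SE 0.13, adjusted p = 1.53e-10) with IFNα alone and by 1.01 (SE 0.15, adjusted p = 3.71e-06) in the presence of CpG. The latter stood at the 2-fold limit, and was under it without CpG replicate 1 (0.90) or CpG + IFNα replicate 2 (0.88).

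Trim21 (ENSMUSG00000030966, chr7:102557921-102565486), a cytosolic antibody receptor that marks antibody-bound virus for degradation, was at 21.8, 21.4 and 15.9 CPM in Unstimulated, 55.5, 53.5 and 62.6 in IFNα, 1.84, 7.84 and 6.99 in CpG and 21.8, 21.7 and 27.8 in CpG + IFNα samples. IFNα samples were the highest and CpG samples the lowest, and the other groups met at their edges. It rose by 1.54 (SE 0.23, adjusted p = 3.61e-06) with IFNα alone and by 2.07 (SE 0.29, adjusted p = 1.42e-06) in the presence of CpG. Trim14, an adaptor at MAVS that lacks a RING domain, moved at lower levels. Its range was 6.37 to 9.63 CPM in Unstimulated, 14.1 to 23.7 in IFNα, 0.499 to 3.56 in CpG and 2.73 to 7.93 in CpG + IFNα samples. It rose by 1.35 (SE 0.39, adjusted p = 0.0112) with IFNα alone and by 1.79 (SE 0.55, adjusted p = 0.0285) in the presence of CpG, and the second call was lost without CpG replicate 1 (1.65), CpG replicate 3 (1.28) or CpG + IFNα replicate 2 (1.36).

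Trim26 (ENSMUSG00000024457, chr17:36837134-36859398), encoded in the major histocompatibility complex region of chromosome 17, was at 106, 103 and 101 CPM in Unstimulated, 88.8, 96.7 and 107 in IFNα, 30.7, 31.4 and 32.5 in CpG and 46.4, 60.4 and 65.3 in CpG + IFNα samples. Unstimulated and IFNα samples overlapped, and the CpG + IFNα samples lay between these and the CpG samples. The log2 fold change was −0.08 (SE 0.14, adjusted p = 0.742) with IFNα alone, which did not pass, and 0.87 (SE 0.15, adjusted p = 0.000103) in the presence of CpG. With CpG alone it fell (log2 fold change −1.71, SE 0.16, adjusted p = 1.86e-11).

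Trim59 (ENSMUSG00000034317, chr3:69035288-69044755), which is anchored in intracellular membranes, was at 82.8, 101 and 88.2 CPM in Unstimulated, 236, 155 and 221 in IFNα, 23.9, 27.1 and 19 in CpG and 12, 8.97 and 18.5 in CpG + IFNα samples. No groups overlapped, and CpG + IFNα samples were the lowest. It rose by 1.16 (SE 0.16, adjusted p = 8.81e-07) with IFNα alone and fell with IFNα in the presence of CpG (log2 fold change −0.85, SE 0.26, adjusted p = 0.0246), and the difference between both effects was −2.01 (SE 0.30, adjusted p = 1.89e-05). The fall in the presence of CpG was lost without CpG replicate 2 or CpG + IFNα replicate 2 (adjusted p = 0.105 to 0.239). CpG + IFNα against IFNα gave −3.98 (SE 0.19, adjusted p = 1.91e-18).

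Of the other genes on that list, Trim8, which promotes NF-κB signalling through TAK1, was at 71.9 to 89.1 CPM in Unstimulated, 80.3 to 130.2 in IFNα, 16.6 to 17.5 in CpG and 11.4 to 18 in CpG + IFNα samples. It fell with CpG (log2 fold change −2.27, SE 0.21, adjusted p = 2.04e-11) and was lower in CpG + IFNα than in IFNα (log2 fold change −2.69, SE 0.19, adjusted p = 4.4e-14). With CpG, Trim35 fell (log2 fold change −1.6, adjusted p = 1.59e-09), as did Trim11 (log2 fold change −1.24, adjusted p = 2.93e-07). Trim39 fell (log2 fold change −1.1, adjusted p = 0.000111), under 2-fold without CpG replicate 3 (−0.96). Trim65, which ubiquitinates the RNA sensor MDA5, fell with CpG (log2 fold change −0.58, adjusted p = 0.0234), under 2-fold and lost without CpG replicate 2 (adjusted p = 0.19), and overlaps Trim47 on the same strand. In CpG + IFNα against IFNα it was lower (log2 fold change −1.15, adjusted p = 1.93e-05), a fold under 2 without IFNα replicate 3 (−0.96) or CpG + IFNα replicate 2 (−0.95). Trim68 was at 9.1 to 15 CPM in Unstimulated, 3.65 to 7.06 in IFNα, 1.23 to 2.5 in CpG and 1.03 to 3.27 in CpG + IFNα samples. It fell with IFNα (log2 fold change −1.34, adjusted p = 0.031), which was lost without Unstimulated replicate 2 (−1.14), IFNα replicate 2 (−1.14) or IFNα replicate 3 (−1.21), and with CpG (log2 fold change −2.66, adjusted p = 2.24e-05).

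Trim7 (ENSMUSG00000040350, chr11:48826140-48852209), a ligase that binds glycogenin, was at 176, 127 and 150.0 CPM in Unstimulated, 31.3, 73.6 and 54.2 in IFNα, 4.3, 12.1 and 4.99 in CpG and 4.36, 8.62 and 8.22 in CpG + IFNα samples. Both CpG groups overlapped each other near the bottom, IFNα samples lay between them and the Unstimulated samples, and none of the latter overlapped another group. It fell with IFNα (log2 fold change −1.46, SE 0.20, adjusted p = 6.55e-07) and with CpG (log2 fold change −4.46, SE 0.27, adjusted p = 7.26e-16), the lowest value of the 30 genes in that comparison. CpG + IFNα against IFNα gave −2.9 (SE 0.28, adjusted p = 6.1e-11). The gene overlaps Gm12184 and Gm16170, and the strand setting of the counting is not given in the sources used here.

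The TIF1 genes, chromatin co-regulators, did not move together. Trim28 (ENSMUSG00000005566, chr7:12999114-13031035), or KAP1, which overlaps Zbtb45 on the opposite strand and is the scaffold that KRAB zinc finger proteins recruit with SETDB1 to silence retroelements, was at 180.2, 222 and 167 CPM in Unstimulated, 198, 153 and 192 in IFNα, 499.8, 478 and 452 in CpG and 491, 438 and 405 in CpG + IFNα samples. Every sample with CpG lay above every sample without it, and samples with and without IFNα overlapped on each side. It rose by 1.33 (SE 0.12, adjusted p = 3.36e-11) with CpG alone and by 1.31 (SE 0.12, adjusted p = 3.02e-11) with CpG in the presence of IFNα. Trim24, a reader of histone marks, was at 50.3 to 57.3 CPM in Unstimulated, 24.2 to 27.5 in IFNα, 17.8 to 28 in CpG and 12.3 to 22.9 in CpG + IFNα samples. It fell with IFNα (log2 fold change −1.06, SE 0.21, adjusted p = 0.000255), under 2-fold without Unstimulated replicate 1 (−1.0), and with CpG (log2 fold change −1.22, SE 0.20, adjusted p = 3.63e-06). Trim33, known in TGF-β signalling, fell with CpG (log2 fold change −0.56, SE 0.15, adjusted p = 0.00175), under 2-fold, and Trim66 had at most 1 count a sample. Of the partners of Trim28 tested, Setdb1 rose with CpG by 0.76 (adjusted p = 0.00135), as did the heterochromatin proteins Cbx1 by 0.79 (adjusted p = 5.46e-07), Cbx3 by 0.76 (adjusted p = 0.0016) and Cbx5 by 1.77 (adjusted p = 5.42e-12), while Atf7ip, which stabilises SETDB1, fell (log2 fold change −1.91, adjusted p = 2.3e-12).

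Trim37 (ENSMUSG00000018548, chr11:87127077-87220683), a ligase known at the centrosome, was the other DEG that rose with CpG. It was at 8.19, 9.63 and 14.1 CPM in Unstimulated, 16.1, 10.3 and 7.63 in IFNα, 28.9, 30.6 and 27.5 in CpG and 19.6, 25.9 and 25.7 in CpG + IFNα samples, and every sample with CpG lay above every sample without it. It rose by 1.42 (SE 0.27, adjusted p = 2.74e-05) with CpG alone and by 1.12 (SE 0.26, adjusted p = 0.000247) in the presence of IFNα, the latter under 2-fold without IFNα replicate 3 (0.94). Trim27 (ENSMUSG00000021326, chr13:21179445-21194724), the RET finger protein, was at 91, 93.1 and 90.9 CPM in Unstimulated, 93.8, 91.8 and 105 in IFNα, 169, 156 and 157 in CpG and 188, 152 and 178 in CpG + IFNα samples. It rose by less than 2-fold with CpG alone, 0.81 (SE 0.13, adjusted p = 9.76e-07), and in the presence of IFNα, 0.83 (SE 0.12, adjusted p = 2.14e-07), and again the samples with and without CpG did not overlap.

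Trim44 (ENSMUSG00000027189, chr2:102300119-102407828), which carries a ubiquitin-protease-type zinc finger in place of a RING domain, was at 61.9, 52.4 and 66.2 CPM in Unstimulated, 77.7, 77.8 and 60.3 in IFNα, 90.3, 98.4 and 85.4 in CpG and 143, 120.1 and 106 in CpG + IFNα samples. The CpG + IFNα samples lay above all others. With CpG it rose by 0.59 (SE 0.15, adjusted p = 0.0011), and with IFNα in the presence of CpG by 0.43 (SE 0.13, adjusted p = 0.0235), both under 2-fold, the second lost without CpG replicate 3 or CpG + IFNα replicate 1 (adjusted p = 0.133 to 0.171), while IFNα alone gave 0.25 (SE 0.16, adjusted p = 0.319), which did not pass. Trim23, with an ARF-type GTPase domain, rose with CpG by 0.77 (adjusted p = 0.0625), a fold that exceeded 2 without Unstimulated replicate 3 (1.14), but the gene no longer passed with DESeq2, without Unstimulated replicate 1 or without CpG replicate 1. Trim41 (−0.29, adjusted p = 0.22) and Trim32 (0.28, adjusted p = 0.63) were the tested genes that did not pass with CpG alone. Trim41 overlaps Rack1 on the opposite strand. In CpG + IFNα against IFNα, Trim32 rose by 0.96 (adjusted p = 0.0935), under 2-fold. That rise was lost with DESeq2 and in 4 of 12 fits that left out a sample, and exceeded 2-fold in 4 settings (1.01 to 1.68).

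**Figure D4:**
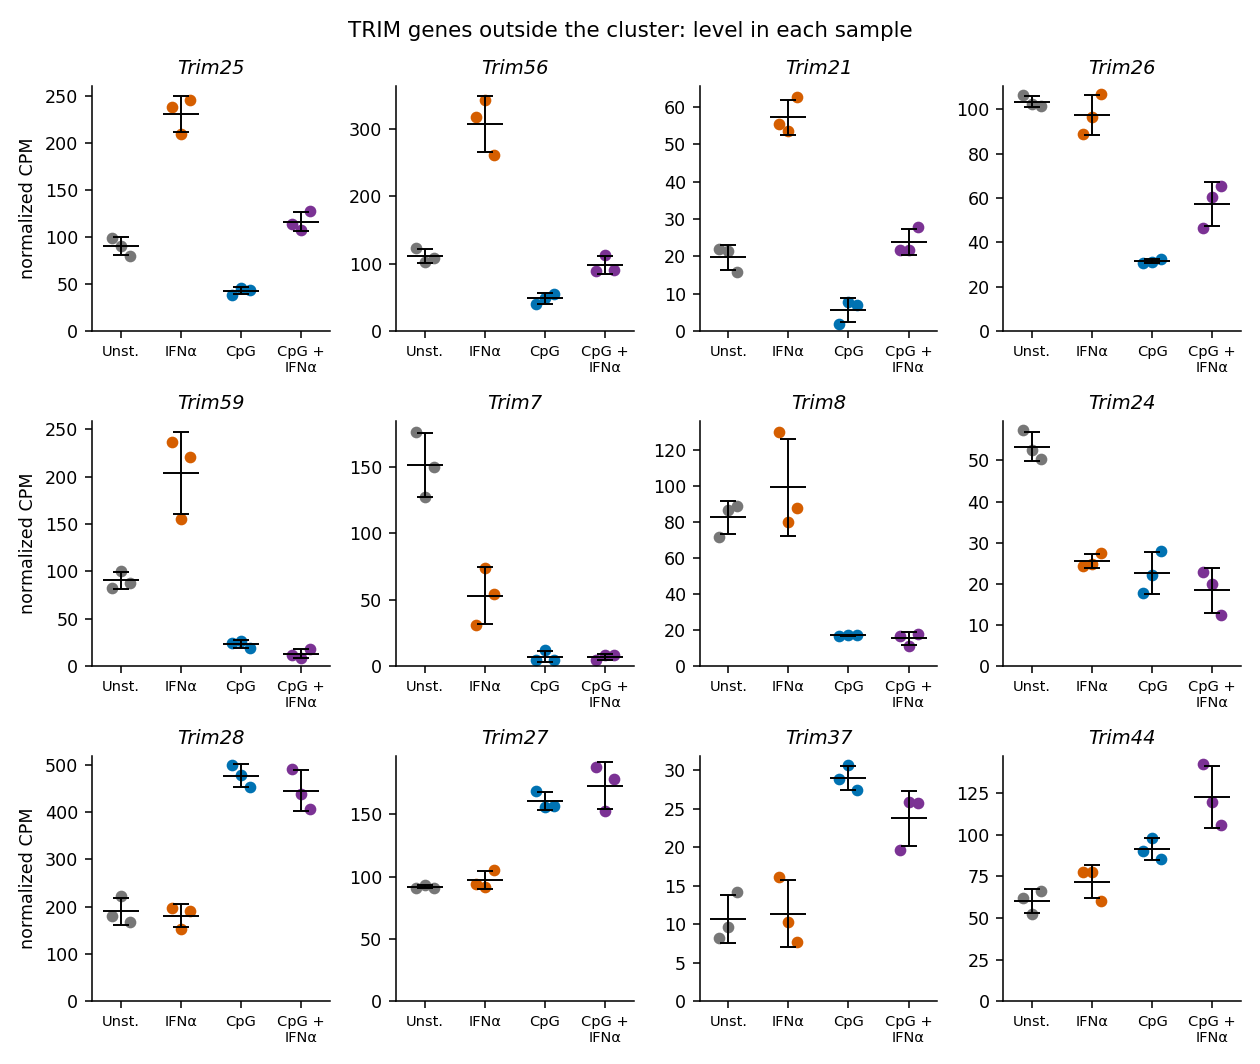
Normalized CPM of 12 TRIM genes outside the chromosome 7 cluster in each sample (points), with the mean (line) and SD (bars) of 3 samples a group. Trim25, Trim56 and Trim21 are highest with IFNα alone, Trim59 is high with IFNα and lowest with both stimuli, and Trim28, Trim27, Trim37 and Trim44 are higher in the samples with CpG.

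The effect of IFNα with CpG was compared directly with its effect without CpG, as an interaction term. As DEGs, 3 TRIM genes had a higher effect with CpG (background: 3.09%) and 1 a lower one (background: 3.17%). By adjusted p alone these counts were 6 (background: 5.84%) and 1 (background: 7.58%). The higher ones were Trim12a, Trim7, 1.56 (SE 0.46, adjusted p = 0.0266), and Trim5, 1.51 (SE 0.44, adjusted p = 0.0242), and the lower one was Trim59. Trim7 and Trim5 fell with IFNα alone and did not pass the test with IFNα in the presence of CpG. The term also passed, with a size under 2-fold, for Trim26 at 0.95 (SE 0.21, adjusted p = 0.0024), Trim30a at 0.59 (SE 0.17, adjusted p = 0.0227) and Trim12c at 0.56 (SE 0.19, adjusted p = 0.0584). For Trim12c this was lost with DESeq2 and in 7 of 12 fits that left out a sample (adjusted p = 0.102 to 0.148), and for Trim7 without CpG replicate 3 or CpG + IFNα replicate 2. For Trim30d the term was 0.60 (SE 0.23, adjusted p = 0.102), for Trim30b −0.83 (SE 0.40, adjusted p = 0.215), for Trim56 −0.45 (SE 0.20, adjusted p = 0.18) and for Trim21 0.53 (SE 0.39, adjusted p = 0.45), none of which passed. Without single samples some of these did, Trim30b without CpG replicate 2 (−1.11, adjusted p = 0.0995) or CpG + IFNα replicate 3 (−1.07, adjusted p = 0.0991), and Trim56 without IFNα replicate 3 (−0.56, adjusted p = 0.0966) or CpG + IFNα replicate 2 (−0.58, adjusted p = 0.0943). Trim30d passed in 4 of 12 such fits and with RLE scaling, no filter or the replicate block (adjusted p = 0.0558 to 0.0881). The term includes the Unstimulated group, so stimulus and culture time cannot be told apart in it, and the immediate-early gene Fos stood at 7.41 (adjusted p = 4.78e-11).

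**Figure D5:**
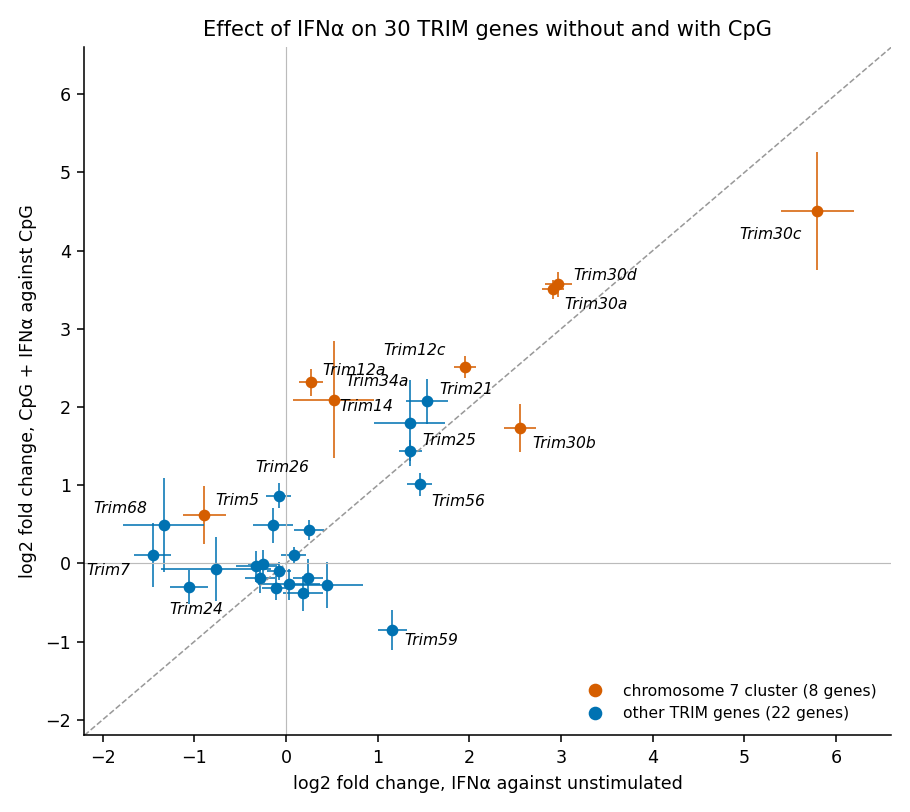
Effect of IFNα on the 30 tested TRIM genes without CpG (x axis) and with CpG (y axis), log2 fold change ± SE, with cluster genes in orange, others in blue and equal effects on the dashed line. Trim12a (0.27 and 2.31) lies above the line and Trim59 (1.16 and −0.85) below it, while the Trim30 genes, Trim25 and Trim21 are positive on both axes.

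Genes known to work with these proteins were listed for comparison. Of 13 tested partners, 4 rose as DEGs with IFNα alone (Ddx58, Ifih1, Cgas and Isg15) and 0 fell, against 4.56% and 4.07% of all genes, and with CpG 1 rose and 6 fell, against 20.1% and 25.5%. Ddx58, the RIG-I sensor on which Trim25 acts, rose by 2.34 (adjusted p = 6.36e-16) with IFNα alone and by 3.73 (adjusted p = 4.89e-16) in the presence of CpG, and fell with CpG (log2 fold change −3.72, adjusted p = 4.41e-16). Pml, a TRIM protein under another symbol that forms nuclear bodies, was at 216, 271 and 214 CPM in Unstimulated, 628, 609.9 and 640.3 in IFNα, 25.8, 29.2 and 28 in CpG and 189, 189 and 206 in CpG + IFNα samples. It rose by 1.43 (SE 0.11, adjusted p = 2.74e-12) and 2.81 (SE 0.14, adjusted p = 3.25e-17) with IFNα without and with CpG, and fell with CpG (log2 fold change −3.07, SE 0.14, adjusted p = 1.37e-18). Sting1, which Trim56 is known to modify, fell with CpG (log2 fold change −1.88, adjusted p = 1.24e-10), and again with IFNα in the presence of CpG (log2 fold change −1.16, adjusted p = 0.000626).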

How the data were processed

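RNA of sorted FO B cells was measured by BRB-seq, which tags each molecule at its 3′ end with a sample barcode and a UMI, in 12 samples grouped by their labels. The deposited values are unnormalized UMI counts for every gene, made by the authors from their reads. Their processing notes name UMI-tools 1.1.2, Trim Galore 0.6.7, HISAT2 2.2.1, featureCounts 2.0.1 and GRCm38, and whether counting used the strand is not given in the sources used here. All 22561 identifiers were found in GENCODE M21. Nothing states that replicates came from separate mice, so p-values measure the spread between these samples, which may be technical.

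Counts were fitted with edgeR 4.0.16 (R 4.3.3, TMM, filterByExpr by group, quasi-likelihood test, 1 fit of all 12 samples with 8 residual degrees of freedom). P-values were adjusted over 9431 genes by Benjamini-Hochberg. DEGs had an adjusted p under 0.1 and a fold over 2. The steps were tried on simulated counts with a fixed spread, in which some well-counted genes were raised in the CpG + IFNα group alone. That setting does not cover genes near the floor or changes as broad as those with CpG. Depth was 922450 to 2923865 counts a library, and counting intervals (95%) cover counting error only. The members and gene lists were chosen with earlier results of these data known. Genes described were every DEG among the members and the tested members of the role lists. Values for each sample were given for the 8 smallest p-values in each IFNα comparison, the 4 smallest in each direction with CpG, the 4 smallest of the interaction, and Trim28. The values of Trim5, Trim34a and Pml by sample, and the mention of Trim41, were added outside these rules after values were seen. Alternatives were RLE scaling, no filter, DESeq2 1.42.0, other thresholds, only the groups compared, a replicate block and leaving out each sample. Protein sequences were not analysed here.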

Additional observations from a re-analysis of the deposited data

Results flagged for a closer look

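The interaction term passed for 7 TRIM genes, each value the log2 effect with CpG minus that without. The term was 2.04 (adjusted p = 5.7e-08) for Trim12a, −2.01 (adjusted p = 1.89e-05) for Trim59, 0.95 (adjusted p = 0.0024) for Trim26, 0.59 (adjusted p = 0.0227) for Trim30a, 1.51 (adjusted p = 0.0242) for Trim5, 1.56 (adjusted p = 0.0266) for Trim7 and 0.56 (adjusted p = 0.0584) for Trim12c. In Trim59 the effects had opposite signs, 1.16 without and −0.85 with CpG. The Trim7 call was lost without CpG replicate 3 (1.33) or CpG + IFNα replicate 2 (1.36). That of Trim12c was lost with DESeq2 and in 7 of 12 fits that left out a sample (adjusted p = 0.102 to 0.148). The part of culture time in these differences cannot be told apart from that of the stimulus.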

How the results depend on the processing

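Counts of TRIM genes called stayed within 1.5 times the reported ones under RLE scaling, no filter, DESeq2, the replicate block and, in the 4 comparisons other than the interaction, only the groups compared. With only the groups compared, fewer genes reached the test. It left 18 TRIM genes lower with CpG in place of 21, and 8 higher with IFNα in the presence of CpG in place of 11. The other counts were unchanged there. Without the filter 47 genes were testable in place of 30, and the median of all genes moved by 0.12 (log2) in CpG + IFNα against IFNα. A log2 fold change over 2 left 4 higher and 0 lower with IFNα alone, 0 higher and 9 lower with CpG, 7 higher with IFNα in the presence of CpG, 0 higher and 5 lower in CpG + IFNα against IFNα, and 1 higher in the interaction. Testing against a 2-fold change left 1 lower with IFNα alone, 7 higher in the presence of CpG, 1 higher in CpG + IFNα against IFNα and 1 higher in the interaction.

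Leaving out each sample in turn gave 10 higher and 2 to 4 lower with IFNα alone, 2 to 3 higher and 19 to 22 lower with CpG, 8 to 11 higher and 0 to 1 lower with IFNα in the presence of CpG, 1 to 3 higher and 13 to 14 lower in CpG + IFNα against IFNα, and 2 to 4 higher and 1 to 2 lower in the interaction. With the replicate block 10 were higher and 3 lower with IFNα alone, 2 and 20 with CpG, 10 and 0 with IFNα in the presence of CpG. The block lost Trim30c with CpG and Trim56 in the presence of CpG (log2 fold change just under the limit). In the interaction Trim30d passed with the block (0.61, adjusted p = 0.0869) at under 2-fold. Same-numbered samples deviated together with r of −0.07 to 0.22, over 0.1 in 6 of 18 pairs, against −0.22 to 0.07 and 0 of 36 for other numbers. Among the 3 stimulated groups all 9 same-numbered pairs were above 0, a hint from the data, but not every pair passed 0.1 or correlated best with its own number, so the numbers were not taken as pairs. DESeq2 lost Trim14 and Trim34a with IFNα in the presence of CpG, Trim68 with IFNα and Trim30c with CpG. The cause of these changes was not tested.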
